A study of Homo sapiens with 15 samples.

Results

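JAM, CADM and nectin genes encode cell-surface proteins of the immunoglobulin superfamily that hold neighbouring cells together, and 10 of them were followed here through 15 RNA libraries of MCF-10A cells. The 10 genes (JAM2, JAM3, F11R, CXADR, CADM1, CADM4, NECTIN1, NECTIN2, NECTIN3 and NECTIN4) were taken by name from a table of 60721 genes. They were picked with results of these data in view, because JAM3 RNA separates the edited lines from one another. The JAM3 levels of the edited lines are therefore described without a test. Of the 10 genes, 8 passed the filter on low counts and were among the 17457 genes tested, and JAM2 and CADM1 did not pass.

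MCF-10A is a non-tumorigenic line of human breast epithelial cells, and the study compared cells with edited NF1 with unedited cells. NF1 encodes neurofibromin, which lowers RAS activity. The 15 libraries comprise 3 each of 5 genotypes: cells carrying an empty vector, unmodified parental cells, cells edited with guide 1 (NF1-g1), cells edited with guide 2 (NF1-g2), and cells edited with guides 1 and 2. All groups were untreated and were grown in medium with horse serum, EGF, hydrocortisone, cholera toxin and insulin, so every line, controls included, was grown with an EGF receptor ligand. Whether an edited line was 1 clone or a pool of cells is not given in the sources used here. The labels call the 3 libraries of a genotype biological replicates without naming separate cultures, so the p-values below measure the spread between these libraries only.

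In epithelial cells, nectins form the first contacts at adherens junctions by binding nectins on the opposite cell, and the scaffold protein afadin (AFDN) ties them to actin. JAM proteins and CXADR sit at tight junctions and bind PDZ scaffolds such as ZO-1 (TJP1) and PAR-3 (PARD3). CADM proteins (also called nectin-like proteins) join cells of the same or different type and bind band 4.1 and MAGUK proteins inside the cell. Several members are also bound by leukocytes or viruses: NECTIN2 and the related PVR by receptors of T and natural killer cells, NECTIN1 by herpes simplex virus, NECTIN4 by measles virus, and CXADR by coxsackievirus and adenovirus.

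Library totals lay between 46129559 and 78976917 counts. Levels are given as CPM, which is the count divided by the library total on a common scale, and 3 counts, the lowest level taken as detectable, correspond to 0.038 to 0.065 CPM. NF1 RNA was at 26.0 to 51.3 CPM in the 9 edited libraries and at 115 to 159 CPM in the 6 unedited ones. A pair of libraries stood apart from the others of their genotype in RNA of E-cadherin and some, but not all, other epithelial markers. Guide 2 replicate 2 had 91.4 CPM of CDH1 (E-cadherin), against 0.0361 and 0.0434 CPM in the other guide 2 libraries. It had 31.4 CPM of NF1, which lies in the range of the edited libraries. Parental replicate 2 had 1.79 CPM of CDH1 against 37.8 and 42.9 CPM in the other parental libraries. Some epithelial markers went the other way to CDH1, KRT8 and LAMB3 in guide 2 replicate 2, and KRT8 and ITGB4 in parental replicate 2. KRT8 was at 70.2 CPM in guide 2 replicate 2, against 159 and 167 CPM in the other guide 2 libraries. In parental replicate 2 it was at 176 CPM, against 105 and 147 CPM in the other parental libraries. Over all genes, the share that differed beyond sampling noise within a genotype was highest for guide 2 replicate 2 (76.8% and 76.6%). Parental replicate 1 differed from replicates 2 and 3 at 65.8% and 55.6% of genes, and parental replicates 2 and 3 from each other at 49.2%. By this share parental replicate 2 did not stand apart from both others, as it did in E-cadherin RNA. The share counts genes beyond sampling noise and gives no size of difference. Guide 1 replicate 3 differed from the other guide 1 libraries at 58.3% and 61.7%, against 29.3% between those. Members' differences from empty-vector cells are given with all 15 libraries and, where a call changes, without guide 2 replicate 2 and parental replicate 2. The second fit was added after seeing the data and takes 1 library each out of the guide 2 and parental groups. Several members also lay far from their group in those libraries, so leaving them out narrows the spread. Its calls and p-values therefore describe the remaining libraries and are no independent test. The summed level of 10 epithelial markers, which include CDH1, EPCAM and keratins, was 4950 to 7050 CPM with the empty vector and 2260 to 5630 CPM in parental cells. Guide 1 cells had 1940 to 3000 CPM of it, guide 2 cells 2330 to 9550 CPM, and cells with both guides 2910 to 3130 CPM. With the empty vector, KRT5, LAMB3, KRT17 and ITGB4 made up most of this sum, with means of 2070, 1360, 959 and 684 CPM. CDH1 (72.7 CPM) and EPCAM (12.8 CPM) added little to it. Of these 10 markers, edgeR called 4 lower in guide 1 cells, 1 in guide 2 cells, 0 for both guides and 1 in parental cells against the empty vector. The shares of all tested genes called in either direction were 5.88%, 3.94%, 0.962% and 4.37%. For both guides 3 markers had an unadjusted p under 0.05, and the share of all genes at that threshold is not given. The sums of 12 mesenchymal markers were 13500 to 15300 CPM with the empty vector, 8490 to 13900 CPM in parental cells, 15000 to 20800 CPM with guide 1, 3910 to 15800 CPM with guide 2 and 11400 to 11700 CPM with both guides. Fibronectin (FN1) alone made up most of these sums, with 11600 to 13400 CPM in empty-vector and 12600 to 18500 CPM in guide 1 libraries, and VIM most of the rest. Of the 10 mesenchymal markers tested, COL1A1 was the only one called in the edited lines against the empty vector, lower in all 3 of them. Against parental cells COL1A1 was called in none of them. COL1A2, at most 0.548 CPM in any library, was called lower than in parental cells with guide 1 (edgeR adjusted p 0.0227) and with both guides (0.0125). The leukocyte markers CD3E and NKG7 were at 0 counts in all 15 libraries, and CD14, at 3.24 to 6.95 CPM, carried most of the summed level of 6 leukocyte markers (at most 6.99 CPM). Of the 6 endothelial markers, CDH5, VWF, TEK and CLDN5 stayed below 1 CPM in all libraries, PECAM1 was at 0.585 to 1.99 CPM, and KDR at 1.72 to 11 CPM. Against the empty vector, KDR was called higher in guide 1 cells (log2 difference 1.86, edgeR adjusted p 0.0352). TEK was called lower than with the empty vector in guide 2 cells (-1.12, 0.02) and in parental cells (-1.46, 0.008). In bulk RNA, fewer cells expressing a gene and less RNA per cell cannot be told apart.

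NECTIN1, NECTIN2, NECTIN3 and F11R were the most abundant members in these cells, and 2 of the 10 genes were close to absent. Per kilobase of annotated exon, the mean level over 15 libraries was 10.7 CPM for NECTIN1, 8.86 CPM for NECTIN3, 7.82 CPM for NECTIN2 and 6.58 CPM for F11R. The first place of NECTIN1 rests on guide 2 replicate 2, without which NECTIN1 had 8.82 and NECTIN3 9.13 CPM per kilobase. The order also differed between genotypes. In empty-vector cells F11R (12.1 CPM per kilobase) was second to NECTIN1 (13.2), and in guide 1 cells NECTIN1 (4.41) was below NECTIN3 (9.63) and NECTIN2 (8.42). Over all 15 libraries the level was 1.14 CPM per kilobase for NECTIN4, 0.561 for JAM3, 0.54 for CADM4 and 0.29 for CXADR. JAM2, the endothelial JAM, had 37 counts in all, spread over 11 of 15 libraries with at most 7 in any of them. CADM1, a synaptic and epithelial adhesion protein, had 1 count in 1 of 15 libraries, although the total per library allowed 3 counts to be seen at 0.065 CPM or below. On the same per-kilobase scale, the relatives CADM3 (131 CPM) and PVR (32.1 CPM) were above every member.

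**Figure D1:**
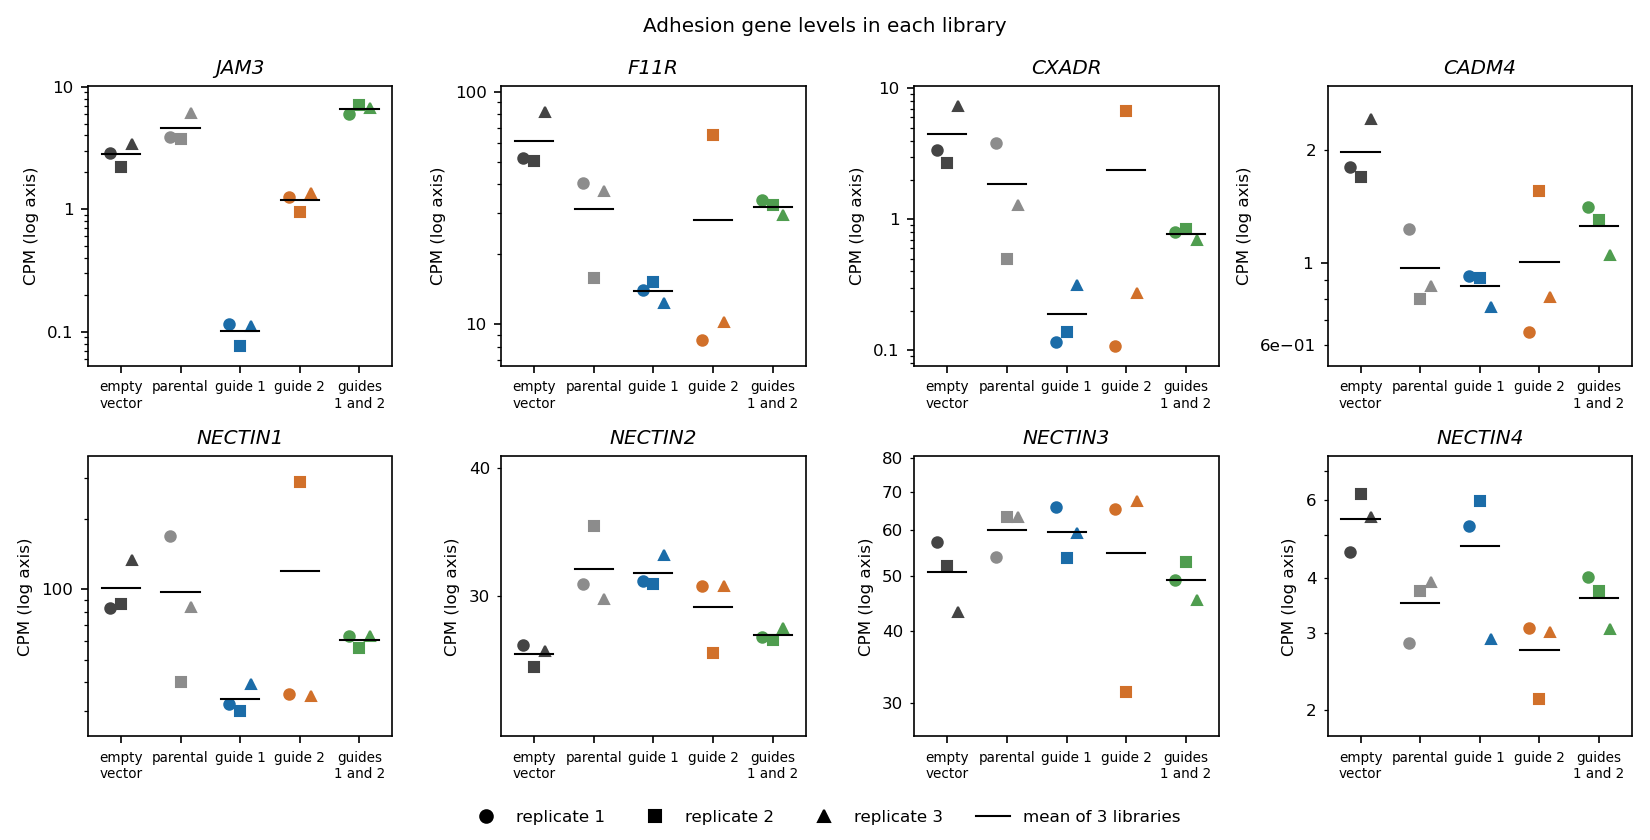
Level of 8 adhesion genes in each of 15 libraries, in CPM on a log axis, by genotype; symbols mark the replicate and bars the mean of 3 libraries. JAM3 runs from 0.076 CPM in guide 1 cells to 7.02 CPM in cells with both guides, with less spread within a genotype than between the edited lines. Guide 2 replicate 2 (orange square) lies far above the other guide 2 libraries for F11R, CXADR and NECTIN1.

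JAM3 (JAM-C) binds JAM2 and itself on opposing cells and is used in tight junctions, cell polarity and leukocyte passage. The gene lies at 134068925 to 134152001 of chromosome 11 (GRCh38, plus strand), and its end overlaps NCAPD3 on the opposite strand. In empty-vector cells JAM3 was at 2.89, 2.21 and 3.41 CPM in replicates 1, 2 and 3, and in parental cells at 3.89, 3.73 and 6.15 CPM. In guide 1 cells it was at 0.115, 0.076 and 0.111 CPM, from 6, 6 and 7 counts. In guide 2 cells it was at 1.25, 0.942 and 1.36 CPM, and in cells with both guides at 6.0, 7.02 and 6.72 CPM. The 3 edited lines thus occupied separate ranges, with guide 1 lowest, guide 2 next and both guides highest, and each lay outside the empty-vector range.

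In order of their means, cells with both guides had 6.58 ± 0.523 CPM of JAM3 (SD, n = 3), parental cells 4.59 ± 1.35 and empty-vector cells 2.84 ± 0.602. Guide 2 cells followed with 1.18 ± 0.215 CPM and guide 1 cells with 0.101 ± 0.0214 CPM. The ranges of cells with both guides and parental cells overlapped, and every other neighbouring pair in this order was apart. Relative to the empty-vector mean, JAM3 stood at 3.54% in guide 1 cells, 41.7% in guide 2 cells, 162% in parental cells and 232% with both guides. The mean of cells with both guides was 65.5 times that of guide 1 cells, and that of guide 2 cells was 11.8 times that of guide 1 cells. The fitted log2 differences from empty-vector cells were -4.83 for guide 1, -1.27 for guide 2 and 1.19 for both guides. From parental cells they were -5.48, -1.93 and 0.53. Between edited lines the log2 difference was -3.55 for guide 1 against guide 2, 6.02 for both guides against guide 1, and 2.46 for both guides against guide 2. These values come from the contrasts by which the gene was chosen and carry no test.

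The unedited genotypes had no part in that choice, and there JAM3 did not pass the test. Parental against empty-vector cells gave a log2 difference of 0.66 (SE 0.230) with an edgeR adjusted p of 0.127, although their libraries did not overlap. When guide 2 replicate 2 and parental replicate 2 were left out, the difference was 0.80 with an edgeR adjusted p of 0.0261. In guide 2 replicate 2, which had E-cadherin RNA far above its group, JAM3 stayed near the other guide 2 libraries, at 0.724 of their mean.

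F11R (JAM-A) is the JAM of epithelial tight junctions and binds itself across the cell border. It lies at 160995211 to 161021348 of chromosome 1 (minus strand), within the span of an annotated gene (AL591806.3) on the same strand, so reads of the 2 may be split between them. The empty-vector libraries had 51.8, 50.4 and 82.2 CPM of F11R, and it was at 40.5, 15.8 and 37.3 CPM in parental cells. It was at 14, 15.2 and 12.3 CPM in guide 1 cells, at 8.53, 65.2 and 10.2 CPM in guide 2 cells, and at 34.2, 32.5 and 29.5 CPM in cells with both guides. All guide 1, both-guide and parental libraries were below the lowest empty-vector library, and guide 2 replicate 2 was inside the empty-vector range. F11R passed the edgeR test in no comparison over all 15 libraries. Its log2 differences from empty-vector cells were -2.16 (SE 0.626, edgeR adjusted p 0.0607) for guide 1, -1.16 (adjusted p 0.326) for guide 2, -0.97 (adjusted p 0.536) for both guides and -1.01 (adjusted p 0.389) for parental cells. In the fit without those 2 libraries, F11R was called lower than in empty-vector cells in all 4. Its log2 difference was then -2.16 (edgeR adjusted p 2.69e-06) for guide 1, -2.72 (2.91e-06) for guide 2, -0.95 (0.00358) for both guides and -0.68 (0.0279) for parental cells.

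CXADR, the coxsackievirus and adenovirus receptor, is a tight junction protein related to the JAMs. It lies at 17512382 to 17593579 of chromosome 21 (plus strand) and overlaps only short non-coding annotations and a processed pseudogene. CXADR was at 3.41, 2.71 and 7.35 CPM in empty-vector cells and at 3.82, 0.501 and 1.28 CPM in parental cells. It was at 0.115, 0.139 and 0.316 CPM in guide 1 cells, at 0.108, 6.72 and 0.275 CPM in guide 2 cells, and at 0.802, 0.838 and 0.697 CPM in cells with both guides. Apart from guide 2 replicate 2, every edited library had less CXADR than every empty-vector library, and that library had 35.1 times the mean of the other guide 2 libraries. Over all 15 libraries the log2 difference from empty-vector cells was -4.56 (SE 1.28, edgeR adjusted p 0.0551) for guide 1, -0.96 (adjusted p 0.684) for guide 2 and -2.55 (adjusted p 0.335) for both guides. With guide 2 replicate 2 and parental replicate 2 left out, CXADR was called lower in all 3 edited lines. Its log2 difference was then -4.55 (edgeR adjusted p 8.37e-05) for guide 1, -4.51 (0.000412) for guide 2 and -2.54 (0.00526) for both guides. Parental cells were not called in that fit either (log2 difference -0.82, edgeR adjusted p 0.265).

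**Figure D2:**
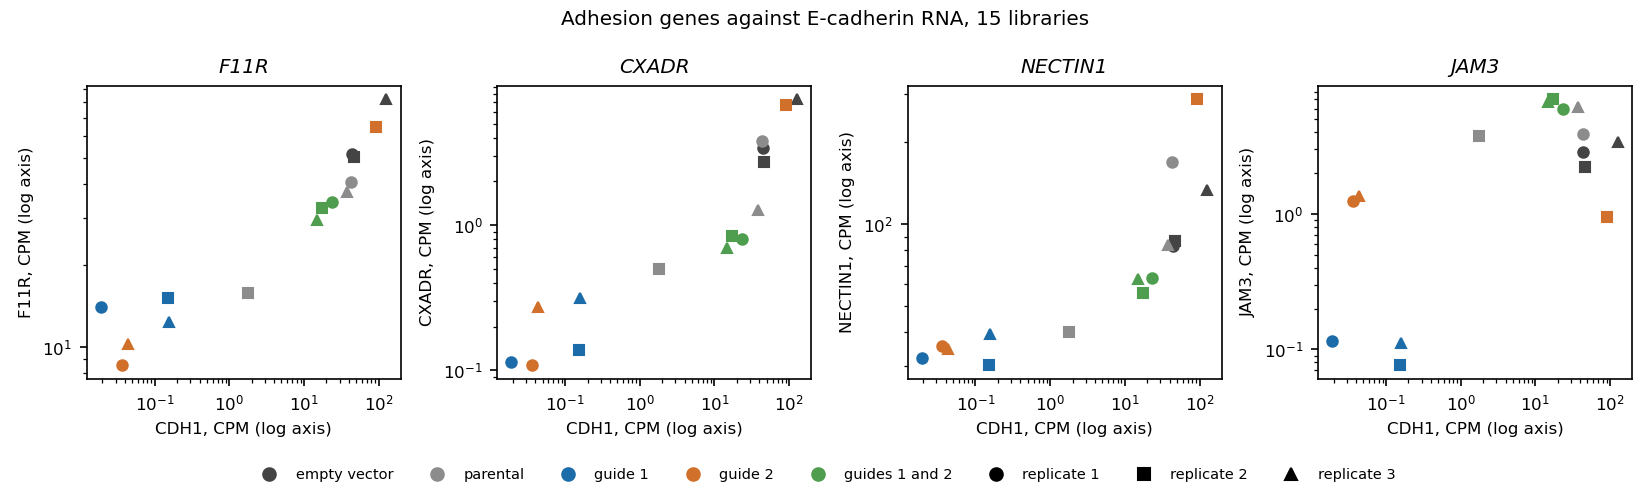
CPM of F11R, CXADR, NECTIN1 and JAM3 against CPM of CDH1 in 15 libraries, both on log axes; colours mark the genotype and symbols the replicate. Guide 2 replicate 2, with 91.4 CPM of CDH1, lies with the empty-vector libraries for F11R and CXADR and above them for NECTIN1, but with the other guide 2 libraries for JAM3.

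CADM4 (nectin-like 4) is an epithelial and Schwann cell adhesion protein, and it lies at 43622368 to 43639839 of chromosome 19 (minus strand), with no overlapping gene. The promoter windows of CADM4 and NECTIN3 are printed here because their RNA lay on opposite sides of the other guide 2 libraries in guide 2 replicate 2, the library with high E-cadherin RNA. They come from RefSeq (GRCh38.p14) and span 250 bases before to 50 bases after the start of transcription. Only CADM4, NECTIN2, NECTIN3 and NECTIN4 had an entry, 4 of the 10 members. The RefSeq start of NECTIN3 lies 1745 bases inside the GENCODE gene given for it below, and that of CADM4 11 bases outside its GENCODE gene, so the window is that of 1 annotated start among possible others. The motif searched was CAGGTG on either strand (read as CACCTG on the other), the E-box that SNAI and ZEB repressors bind in the CDH1 promoter, and matches are in capitals.
CADM4, chr19:43639801-43640100, minus strand: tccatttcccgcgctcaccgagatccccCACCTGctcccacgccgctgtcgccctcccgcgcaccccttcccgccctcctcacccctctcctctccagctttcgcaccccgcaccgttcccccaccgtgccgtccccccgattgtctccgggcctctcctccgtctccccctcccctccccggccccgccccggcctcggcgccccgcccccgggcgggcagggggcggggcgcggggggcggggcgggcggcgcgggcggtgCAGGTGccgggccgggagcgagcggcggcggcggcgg
NECTIN3, chr3:111071566-111071865, plus strand: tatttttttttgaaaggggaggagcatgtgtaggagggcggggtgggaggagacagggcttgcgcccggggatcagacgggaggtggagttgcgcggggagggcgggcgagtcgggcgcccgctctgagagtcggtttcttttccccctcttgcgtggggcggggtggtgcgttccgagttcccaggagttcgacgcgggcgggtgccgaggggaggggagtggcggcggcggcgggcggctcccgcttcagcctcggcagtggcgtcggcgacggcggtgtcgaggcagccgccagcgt
The CADM4 window holds 2 matches, beginning 222 bases before and 13 bases after the start. The NECTIN3 window holds 0, the NECTIN2 window 0, and the NECTIN4 window 1, beginning 38 bases before the start. In guide 2 replicate 2, NECTIN4 and NECTIN2 also lay below the other guide 2 libraries, at 0.696 and 0.861 of their mean. Genes with and without a match thus lay on the same side as NECTIN3. Of all 35116 promoter windows in the RefSeq table, 20.6% hold at least 1 match and 3.49% hold 2 or more, so a match is a common property and is given as a description of the letters only.

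CADM4 was at 1.80, 1.70 and 2.42 CPM in empty-vector cells, at 1.23, 0.799 and 0.866 CPM in parental cells and at 0.919, 0.912 and 0.76 CPM in guide 1 cells. It was at 0.65, 1.56 and 0.809 CPM in guide 2 cells and at 1.41, 1.30 and 1.05 CPM in cells with both guides. All 12 libraries of the other genotypes were below the lowest empty-vector library. Guide 2 replicate 2 was again the highest of its group, at 2.14 times the mean of the other guide 2 libraries. In guide 1 cells CADM4 was lower, with a log2 difference of -1.20 (edgeR adjusted p 0.0356, SE 0.301). In 9 of the 15 fits with 1 library left out this call was lost, with the highest edgeR adjusted p, 0.162, without empty vector replicate 3, and without guide 2 replicate 2 the adjusted p was 0.00227. The other libraries whose removal ended the call were guide 1 replicates 1, 2 and 3, empty vector replicates 1 and 2, parental replicate 3, and replicates 1 and 2 of cells with both guides, with adjusted p between 0.0514 and 0.114. CADM4 was not called in guide 2 cells (log2 difference -0.99, edgeR adjusted p 0.0868), with both guides (-0.68, 0.327) or in parental cells (-1.06, 0.0634). Leaving out guide 2 replicate 2 and parental replicate 2, it was called lower in guide 2 cells (-1.44, edgeR adjusted p 0.00165) and in parental cells (-0.93, 0.0258).

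NECTIN1 binds NECTIN3 across the cell border and lies at 119623408 to 119729084 of chromosome 11 (minus strand). It was the most variable nectin. NECTIN1 was at 83.4, 86.8 and 134 CPM in empty-vector cells and at 169, 40.2 and 83.6 CPM in parental cells. It was at 32.2, 30.2 and 39.5 CPM in guide 1 cells, at 35.5, 288 and 34.8 CPM in guide 2 cells, and at 63.2, 55.8 and 62.8 CPM in cells with both guides. Guide 2 replicate 2 had the highest NECTIN1 level of all 15 libraries, 8.19 times the mean of the other guide 2 libraries. Parental replicate 2 was 3.15-fold below the mean of the other parental libraries. The fitted log2 difference from empty-vector cells was -1.59 (SE 0.698, edgeR adjusted p 0.206) for guide 1, 0.21 (adjusted p 0.909) for guide 2 and -0.77 (adjusted p 0.707) for both guides. With both of these libraries left out, NECTIN1 was called lower in guide 1 cells (-1.59, edgeR adjusted p 0.000369) and in guide 2 cells, where the sign turned (-1.54, 0.00151), and it missed the threshold in cells with both guides (-0.76, 0.0531).

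NECTIN3 and NECTIN2 spread far less between libraries. NECTIN3 (chromosome 3, 111070071 to 111275563, plus strand), the partner of NECTIN1, was at 57.1, 52.0 and 43.2 CPM in empty-vector cells and at 53.9, 63.2 and 63.2 CPM in parental cells. It was at 65.8, 53.6 and 59.2 CPM in guide 1 cells, at 65.2, 31.4 and 67.4 CPM in guide 2 cells, and at 49.2, 52.7 and 45.3 CPM in cells with both guides. Guide 2 replicate 2 was its lowest library, 2.11-fold below the mean of the other guide 2 libraries, which is the opposite direction to NECTIN1. NECTIN3 was not called against empty-vector cells in any line over all libraries; for guide 1 the log2 difference was 0.22 with a 95% interval from -0.25 to 0.69. In the fit without guide 2 replicate 2 and parental replicate 2, NECTIN3 was called higher in guide 2 cells (0.37, edgeR adjusted p 0.0381).

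NECTIN2 (chromosome 19, 44846175 to 44889228, plus strand) is a ligand of leukocyte receptors as well as a junction protein. It was at 26.9, 25.6 and 26.5 CPM in empty-vector cells, at 30.8, 35.1 and 29.8 CPM in parental cells and at 31.0, 30.8 and 32.9 CPM in guide 1 cells. It was at 30.7, 26.4 and 30.7 CPM in guide 2 cells and at 27.4, 27.2 and 27.9 CPM in cells with both guides. The 3 empty-vector libraries and guide 2 replicate 2 were the lowest, and the whole range over 15 libraries was 25.6 to 35.1 CPM. The log2 difference from empty-vector cells was 0.25 (95% interval 0.06 to 0.43, edgeR adjusted p 0.108) for guide 1 and 0.24 (0.06 to 0.42, adjusted p 0.128) for parental cells. When those 2 libraries were left out, NECTIN2 was called higher in guide 1 cells (0.25, edgeR adjusted p 0.0077) and in guide 2 cells (0.21, 0.0428).

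NECTIN4 (chromosome 1, 161070995 to 161089599, minus strand), known for its high level in several carcinomas, was a low nectin here. It was at 4.57, 6.21 and 5.50 CPM in empty-vector cells and at 2.84, 3.73 and 3.92 CPM in parental cells. It was at 5.25, 5.98 and 2.90 CPM in guide 1 cells, at 3.07, 2.12 and 3.02 CPM in guide 2 cells, and at 4.01, 3.73 and 3.06 CPM in cells with both guides. The guide 2, both-guide and parental libraries were all below the lowest empty-vector library, and guide 1 replicates 1 and 2 were inside the empty-vector range. In guide 2 cells NECTIN4 was lower, with a log2 difference of -0.998 (edgeR adjusted p 0.0495, SE 0.258). The call rested on a narrow margin: it held in 3 of 15 fits with 1 library left out, namely without guide 1 replicate 2, guide 1 replicate 3 or guide 2 replicate 2. Leaving out each of the other 12 in turn took the edgeR adjusted p above the threshold, to at most 0.149 (without empty vector replicate 3). The log2 difference was -0.62 (adjusted p 0.296) for both guides, -0.67 (adjusted p 0.164) for parental cells and -0.21 (adjusted p 0.673) for guide 1.

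**Figure D3:**
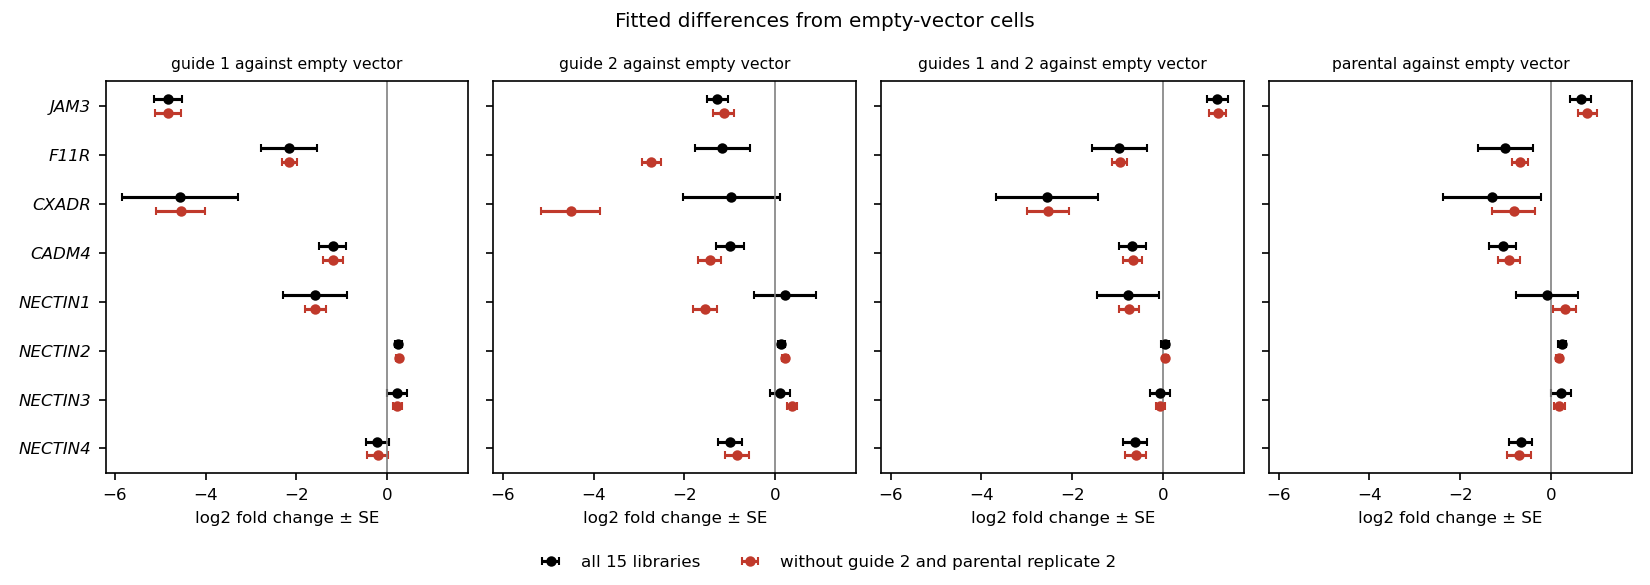
Fitted log2 fold change of each member against empty-vector cells, with its standard error, from edgeR fits with all 15 libraries (black) and without guide 2 replicate 2 and parental replicate 2 (red). For guide 2 the NECTIN1 value moves from 0.21 to -1.54 and the CXADR value from -0.96 to -4.51, while the JAM3 value moves from -1.27 to -1.13.

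Counted together, few members passed the edgeR threshold over all 15 libraries. Against empty-vector cells, 2 of 8 were called in guide 1 cells (CADM4 and JAM3), where 5.88% of all tested genes were called. In guide 2 cells 2 were called (JAM3 and NECTIN4), with 3.94% of all genes called, and in cells with both guides 1 was called (JAM3), with 0.962% of all genes called. JAM3 was chosen on these contrasts, so its part in the counts is no result. In parental cells 0 of 8 were called by edgeR, with 4.37% of all genes called; 4 had an unadjusted p under 0.05 (19.8% of all genes), and DESeq2 called 1, CADM4 (8.95% of all genes). Against parental cells, no member other than JAM3 was called in guide 1 cells (0.149% of all genes) or in guide 2 cells (0.0516%). The JAM3 calls there rest on the levels by which it was chosen and are no result. With both guides 0 were called (0.195% of all genes); 2 had an unadjusted edgeR p under 0.05 (9.98% of all genes), and DESeq2 called 0 (1.77%). DESeq2 gave F11R no adjusted p. The median log2 difference of the 8 members from empty-vector cells was -1.40 in guide 1 cells, -0.98 in guide 2 cells, -0.65 for both guides and -0.38 in parental cells. Over all tested genes these medians were 0.02, 0.03, -0.0011 and 0.01. Without guide 2 replicate 2 and parental replicate 2 the members' medians were -1.39, -1.29, -0.64 and -0.25.

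Ranges that did not overlap with the empty vector were frequent among all genes and among the members. This held for 6 of 8 members in guide 1 cells (1 higher, 5 lower), with 36.2% of all tested genes apart, and for 3 of 8 in guide 2 cells (all lower), with 23.1% of all genes apart. It held for 7 of 8 with both guides (2 higher, 5 lower), with 37.7% of all genes apart, and for 5 of 8 in parental cells (2 higher, 3 lower), with 32.1% of all genes apart. JAM3 is among these members in every edited line, where it was chosen for its levels, so its part in the counts is no result. With both guides NECTIN2 was apart by a narrow margin, at 27.2 CPM or more against 26.9 CPM or less with the empty vector.

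Leaving out libraries that stood apart raised the counts for the members and for all genes in the comparisons given next. These libraries were picked after their levels were seen, so the counts are a description and no further support. Without guide 2 replicate 2, 6 members were called against the empty vector in guide 1 cells, namely CADM4, CXADR, F11R, JAM3, NECTIN1 and NECTIN2 (18.1% of all genes). In guide 2 cells 6 were called, with NECTIN4 in place of NECTIN2 (14.5%). With both guides 2 were called, CXADR and JAM3 (6.7%), and in parental cells 3, CADM4, F11R and NECTIN2 (13.9%). Against parental cells the counts were 4 for guide 1 (14.5%) and 3 for guide 2 (5.96%). Without guide 2 replicate 2 and parental replicate 2, the calls against the empty vector were 6 in guide 1 cells (21.7% of all genes), all 8 tested members in guide 2 cells (17.4%), 3 for both guides (9.33%) and 3 in parental cells (14.6%). Against parental cells they were 4 for guide 1 (28.6%), 4 for guide 2 (17.6%) and 1 for both guides, NECTIN1 (5.54%). In that last fit the guide 2 members called lower than in empty-vector cells were JAM3, F11R, CXADR, CADM4, NECTIN1 and NECTIN4, and those called higher were NECTIN2 and NECTIN3. Wherever JAM3 is counted for an edited line in these fits, its part is no result, since it was chosen for its levels there.

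Within genotypes, NECTIN1, F11R, CADM4 and CXADR tended to be highest in the library with the most E-cadherin RNA. Guide 1 cells give no such library, since their CDH1 rests on 1, 12 and 10 counts. In the other 4 genotypes NECTIN1, F11R and CADM4 were highest in that library in 4 of 4 and CXADR in 3 of 4. JAM3 and NECTIN4 were highest there in 1 of 4 each, and NECTIN2 and NECTIN3 in 0 of 4. These are counts over 3 libraries a genotype and carry no test. In guide 2 replicate 2 the basal marker TP63 was at 75.8 CPM against 0.0542 and 0.0723 CPM in the other guide 2 libraries, and ZEB1, a repressor of epithelial genes, at 16.7 CPM against 54.4 and 56.1 CPM. The part of these marker differences in the members' values was not tested.

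Among the proteins that anchor the members, AFDN and TJP1 were called lower in single-guide lines against the empty vector, but not against parental cells. Of 19 listed partners 18 were tested. Against the empty vector, edgeR called 2 in guide 1 cells, 2 in guide 2 cells, 0 for both guides and 1 in parental cells, with the same shares of all genes called as for the members. Both guides had 2 at an unadjusted edgeR p under 0.05, and DESeq2 called 0. The shares of all genes for those 2 counts are not given. AFDN, the afadin gene, was at 112, 120 and 154 CPM in empty-vector cells and at 68.2, 67.0 and 78.2 CPM in guide 1 cells. It fell by 0.87 on the log2 scale in guide 1 cells (edgeR adjusted p 0.00424) and by 0.56 in guide 2 cells (0.0315), where it was at 79.2, 103 and 84.2 CPM. In parental cells AFDN was at 93.7, 87.6 and 107 CPM and with both guides at 103, 99.8 and 93.1 CPM, also all below the empty-vector libraries, with log2 differences of -0.46 (edgeR adjusted p 0.0647) and -0.41 (0.156). Against parental cells, 0 of 18 partners were called by edgeR in guide 1 cells (6 at an unadjusted p under 0.05), in guide 2 cells (1) or with both guides (1), and DESeq2 called 0, 0 and 1. Of all genes, edgeR called 0.149%, 0.0516% and 0.195% there. Shares at an unadjusted p (9.98%) and by DESeq2 (1.77%) are given for both guides only. The other unadjusted and DESeq2 counts are therefore not set against other genes. TJP1 fell by 0.36 in guide 1 cells (edgeR adjusted p 0.0298) and by 0.40 in guide 2 cells (0.0244). LMO7, an afadin-binding protein, rose by 0.69 in parental cells (edgeR adjusted p 0.0206). With 1 library left out at a time, AFDN stayed called in 15 of 15 fits for guide 1 and in 9 of 15 for guide 2, and TJP1 in 12 of 15 for each. For guide 2, the AFDN call was lost without empty vector replicate 2 or 3, guide 2 replicate 1 or 3, or both-guide replicate 1 or 2. The TJP1 call was lost without empty vector replicate 3 in each line, without guide 1 replicate 1 or 2 for guide 1, and without guide 2 replicate 1 or 3 for guide 2. LMO7 stayed called in 11 of 15 fits and was lost without any 1 of the empty-vector libraries or parental replicate 2. When guide 2 replicate 2 and parental replicate 2 were both left out, the partners called against the empty vector were 7 for guide 1, 8 for guide 2, 1 for both guides and 1 in parental cells. The shares of all genes called there were 21.7%, 17.4%, 9.33% and 14.6%. Against parental cells the partners called were 7, 4 and 2 for the 3 lines, with 28.6%, 17.6% and 5.54% of all genes called.

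Of 11 listed relatives, 6 were tested. CLMP, a CXADR-like protein, rose by 0.22 in guide 1 cells (edgeR adjusted p 0.034) and by 0.25 in guide 2 cells (0.0265), from 293, 283 and 266 CPM in empty-vector cells. These calls held in 4 of 15 fits for guide 1 and in 7 of 15 for guide 2 with 1 library left out. For guide 1 they held without guide 1 replicate 3, guide 2 replicate 2 or 3, or parental replicate 1, and for guide 2 without any 1 guide 1 or parental library or guide 2 replicate 2. The other relatives passed in no comparison with the empty vector. With both guides 0 were called by edgeR (2 at an unadjusted p under 0.05) and 1, CLMP, by DESeq2, and in parental cells 0 by either (1 at an unadjusted edgeR p under 0.05). For both guides the shares of all genes at an unadjusted p or by DESeq2 are not given. In parental cells they were 19.8% and 8.95%. With guide 2 replicate 2 and parental replicate 2 left out, the relatives called against the empty vector were 3 for guide 1 (CADM3, CLMP and PVR), 1 for guide 2, 1 for both guides and 0 in parental cells. The shares of all genes called are those given for the partners in that fit. CADM3, a partner of CADM proteins mostly known from neurons, was the most abundant relative, at 116 to 827 CPM. Its lowest library was guide 2 replicate 2, against 589 and 572 CPM in the other guide 2 libraries. PVR, which binds NECTIN3, was at 94.5 to 142 CPM in all 15 libraries and was not called in guide 1 cells (log2 difference -0.25, edgeR adjusted p 0.148). Of the lymphocyte receptors for nectins and CADM1 (TIGIT, CD226, CD96 and CRTAM), 1 of 4 was tested, CD226 at 0.348 to 1.08 CPM, and 0 were called; its unadjusted edgeR p was under 0.05 for both guides against the empty vector (0.045). DESeq2 was not run for this list.

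Genes beside JAM3 did not follow its order. Within 500 kb of it the table held 21 genes, of which 6 had a mean of at least 1 CPM: IGSF9B, NCAPD3, VPS26B, THYN1, ACAD8 and GLB1L2. In guide 1 cells their means were 0.894 to 1.74 times those in empty-vector cells, while JAM3 was at 0.0354 times. In guide 2 cells they were at 0.725 to 2.2 times and JAM3 at 0.417 times, and with both guides at 1.32 to 1.79 times and JAM3 at 2.32 times. In parental cells the neighbours were at 0.743 to 1.79 times and JAM3 at 1.62 times. IGSF9B shared part of the JAM3 pattern. It was at 27.8 to 34.7 CPM with both guides and 14.4 to 16.3 CPM with guide 2, against 19.6 to 21.7 CPM with the empty vector. Unlike JAM3, it overlapped the empty-vector range in guide 1 cells (15.4 to 21.2 CPM) and was below it in parental cells (12.2 to 18.9 CPM). NCAPD3, whose 3' end overlaps that of JAM3 on the opposite strand, averaged 88.5 CPM with the empty vector and 112 CPM in guide 1 cells. With strand use in the counting not given in the sources used here, reads in the shared stretch cannot be assigned to either gene with certainty.

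**Figure D4:**
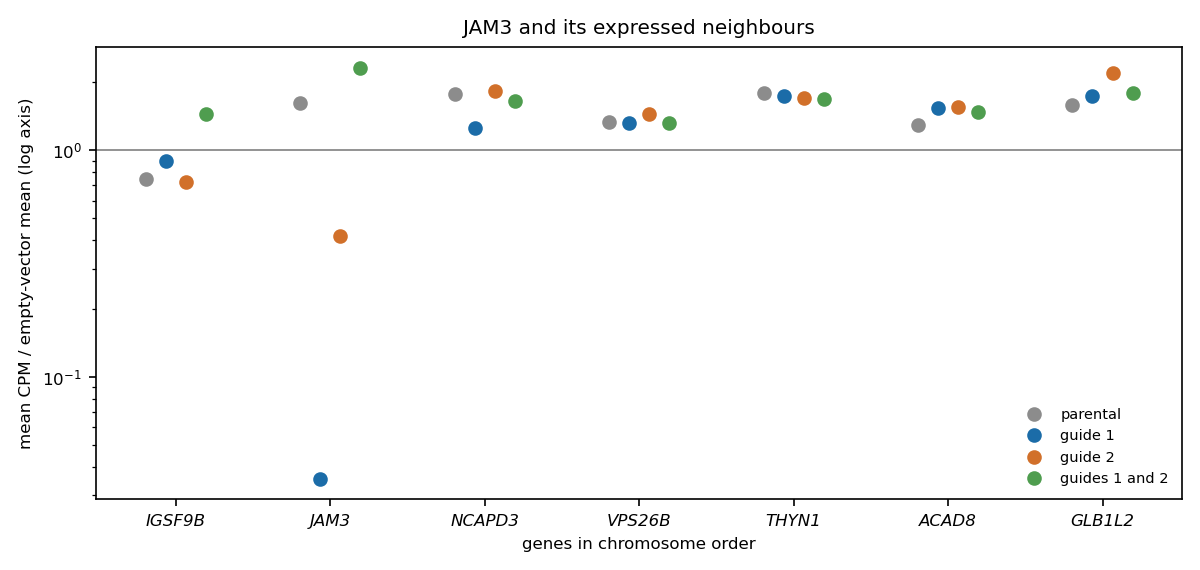
Mean CPM of JAM3 and of 6 expressed genes within 500 kb, divided by the empty-vector mean of the same gene, on a log axis; each point is 1 genotype (mean of 3 libraries) and the grey line marks the empty-vector level. JAM3 spans 0.0354 to 2.32, and the lowest neighbour value in any genotype is 0.725.

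The genes whose log2 CPM was most like that of JAM3 over 15 libraries, among 12807 genes with a mean of at least 1 CPM, were NUDT11 (Pearson r 0.947), DKK3 (0.898), GABRA2 (0.878), LINC01819 (0.876) and C9orf64 (0.874). Among those most opposed were SMG8 (-0.844), DNAH11 (-0.836), RNF41 (-0.819) and PISD (-0.815). These coefficients describe 15 libraries that share 5 genotypes, including those that stood apart. NUDT11 averaged 2.45 CPM with the empty vector, 2.3 CPM in parental cells, 0.748 CPM with guide 2 and 2.19 CPM with both guides. In guide 1 cells it was below the detectable level, at 0 to 0.0127 CPM. C9orf64 was at 2.55 ± 0.312 CPM with the empty vector, 0.0243 ± 0.012 CPM with guide 1, 0.0916 ± 0.0343 CPM with guide 2 and 2.68 ± 0.345 CPM with both guides (SD, n = 3 each). In parental cells it was at 0.946 ± 0.185 CPM, below the empty vector, whereas JAM3 was higher there than with the empty vector. The other members were less like JAM3: r was 0.519 for CXADR, 0.513 for F11R, 0.417 for NECTIN1, 0.364 for CADM4, -0.147 for NECTIN4, -0.186 for NECTIN3 and -0.437 for NECTIN2.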

How the data were processed

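RNA from 15 libraries of MCF-10A cells in 5 genotypes was used. Poly(A) RNA was purified on RNeasy columns and made into libraries with a KAPA kit, per the labels' protocols. Trim Galore 0.6.0, STAR 2.7.8a and GRCh38 are named in the submitters' processing notes; the counting program, its annotation and its use of strand are not given in the sources used here. The authors deposited whole-number counts per gene and CPM, and the deposited CPM equal counts scaled by the library total within 4.91e-11. Library totals were 46129559 to 78976917 counts, and the floor of 3 counts covers counting error only.

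Counts were tested with edgeR 4.0.16 in R 4.3.3: filterByExpr by genotype (17457 of 60721 genes kept), TMM scaling, 1 quasi-likelihood group-means model over all 15 libraries, two-sided tests and Benjamini-Hochberg adjustment over all tested genes at 0.05. Intervals are 95%. Between 24.6% and 76.8% of genes differed beyond sampling noise between replicate libraries, so each was counted as 1. Symbols and positions are from GENCODE 29. Genes like JAM3 were ranked by Pearson r of log2 CPM (prior count 2). Lists of relatives, partners and markers, and the members, were chosen with earlier results of these data known. Named genes are the members, NF1, listed genes that were called, the 5 genes most like and the 5 most unlike JAM3, and expressed neighbours of JAM3 within 500 kb; some genes under this rule and the marker lists are not reported here. CADM3, PVR, CD226 and the single marker genes were named after their values were seen.

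Alternatives were a replicate block, RLE scaling, DESeq2 1.42.0, every gene without the filter, only the compared groups in the fit, and each library left out in turn. The fit without guide 2 replicate 2 and parental replicate 2, and the restriction of the within-genotype order to genotypes with CDH1 above 1 CPM in some library, were added after seeing the data. The procedure was tested on simulated data. Numerical work used Python 3.11.15, numpy 2.4.6, pandas 2.3.3 and matplotlib 3.10.9.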

Additional observations from a re-analysis of the deposited data

Results flagged for a closer look

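JAM3 lay on opposite sides of the empty-vector range in different edited lines. All 3 libraries with both guides were above every empty-vector library, and all 3 guide 1 libraries were below every one, with a ratio of 65.5 between the 2 means. The guide 2 libraries were also all below every empty-vector library, and the mean of cells with both guides was 5.57 times the guide 2 mean. Neither difference between lines was tested, since JAM3 was chosen for these levels.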

How the results depend on the processing

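Each fitted JAM3 difference of an edited line kept its sign under every alternative run. With no filter on low counts, members called against the empty vector were 4 for guide 1 and 1 for guide 2. With only the compared groups in the fit they were 6 for guide 1, 0 for guide 2 and 6 for both guides, and 0 for guide 2 against parental cells. DESeq2 called 1 member in parental against empty-vector cells. With a replicate block 1 member was called in guide 1 and 1 in guide 2 cells against the empty vector. Shares of all genes called are not given for the fits without the filter, with only the compared groups or with the block. Their counts are therefore not set against other genes, and where JAM3 is counted for an edited line its part is no result. CADM4 (guide 1, edgeR adjusted p 0.0694) and NECTIN4 (guide 2, 0.0943) were lost under the block, and the CXADR log2 difference of guide 2 from parental cells became -0.0321. The replicate numbers did not pair the libraries: same-numbered libraries had a mean correlation of -0.05 over 30 pairs (range -0.75 to 0.28), and other pairs 0.028. Without guide 2 replicate 2 and parental replicate 2, the members called were 6 (guide 1), 8 (guide 2), 3 (both guides) and 3 (parental) against the empty vector, and 4, 4 and 1 for the 3 lines against parental cells. In that fit the log2 differences that turned were NECTIN1 for guide 2 (-1.54) and for parental cells (0.30) against the empty vector, and CXADR (-3.68) and NECTIN1 (-1.84) for guide 2 against parental cells.

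With each library left out in turn, members called against the empty vector ranged from 1 to 6 (guide 1), 0 to 6 (guide 2), 0 to 2 (both guides) and 0 to 3 (parental), and against parental cells from 1 to 4, 0 to 3 and 0 to 0. Shares of all genes are given for 1 of these fits, without guide 2 replicate 2, which reached the highest count of each nonzero range. The log2 differences that turned in those fits ranged from -1.56 to 0.63 (NECTIN1, guide 2), -0.74 to 0.28 (NECTIN1, parental), -0.0887 to 0.36 (NECTIN3, guide 2), -0.17 to 0.0089 (NECTIN3, both guides) and -0.43 to 0.0503 (NECTIN4, guide 1) against the empty vector. For guide 2 against parental cells they ranged from -3.22 to 1.44 (CXADR), -1.46 to 0.96 (NECTIN1) and -1.72 to 0.27 (F11R). The cause was not tested. In guide 1 cells JAM3 and CXADR rest on 6 to 20 counts a library, which limits their precision.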
